A study of Drosophila melanogaster with 8 samples.

Results

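The genes described here encode 32 receptors for neuropeptides and peptide or glycoprotein hormones of Drosophila melanogaster, taken as a fixed list of symbols and measured by RNA sequencing of the larval ventral nerve cord. All 32 symbols matched identifiers among the 14175 genes of each library, and all 32 passed the filter on low counts. By receptor class they comprised 25 G protein-coupled receptors of family A (rhodopsin-like), 4 of family B (secretin-like), 2 with leucine-rich repeats in the extracellular part and 1 receptor guanylyl cyclase. Mutant larvae carried witA12 over witB11, each on a chromosome marked with st1, and control larvae had witA12, st1 on 1 homologue and a wild-type wit allele on the other (witA12, st1/+), so that the controls too had 1 mutant wit allele. Both genotypes were female wandering larvae in a w1118 background, grown at 25 °C, with 4 libraries per genotype and a pool of 25 nerve cords behind each library. The contrast addresses which transcripts of the nerve cord depend on wit, the gene for a type II receptor of bone morphogenetic protein (BMP) ligands.

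Neuropeptides are released from large dense-core vesicles and act at a distance through receptors on other neurons, muscles or glands. Most of those receptors couple to heterotrimeric G proteins, which alter cyclic AMP or intracellular calcium in the receiving cell. In the larval nerve cord, peptide receptors set the gain of locomotor, feeding and nociceptive circuits. BMP signalling through wit runs the other way, from muscle and other targets back to the neurons that innervate them, and is known for its control of peptide genes in efferent neurons.

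Library totals ran from 20923717 to 32740480 estimated counts. At these totals 3 counts corresponded to 0.0926 to 0.142 CPM, the usual count scaled to a common library total, and intervals of this kind cover counting error only. The wit transcript ranged from 82.1 to 91.0 CPM in mutants and from 86.6 to 94.9 CPM in controls, and since the nature of the alleles is not given in the labels, its level does not check the genotype. The neuronal markers elav, nSyb, Syt1 and brp summed to between 3375 and 3709 CPM in mutants and between 3903 and 4065 CPM in controls. Of these nSyb, Syt1 and brp were lower in mutants (log2 fold changes of -0.22, -0.19 and -0.18). The change of elav, -0.11, did not pass (edgeR adjusted p = 0.0918). The ring gland genes phtm, dib and sad had at most 4 counts in any library. Akh, also a ring gland marker, had 96 counts in mutant replicate 2 and 8 to 15 in the other libraries. The brain lobes had been removed, and SIFa, a peptide gene of brain neurons, had 0 counts in all 8 libraries. The glial markers repo, wrapper, Eaat1 and moody summed to between 437 and 479 CPM in mutants and between 525 and 543 CPM in controls. Among them wrapper and Eaat1 were lower in mutants (-0.38 and -0.21), while repo (-0.07) and moody (-0.06) did not pass. In pooled tissue, fewer cells of a type and less RNA per cell cannot be told apart.

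Of the 32 receptor genes, 4 fell, 2 rose and 26 did not pass edgeR's quasi-likelihood test at an adjusted p of 0.05. The share that fell, 12.5%, stood beside 8.66% of all 9176 genes tested, and the share that rose, 6.25%, beside 6.12%. In both directions together 18.8% of the receptor genes passed, against 14.8% of all genes. For 5 receptor genes, or 15.6%, the ranges of the genotypes were fully apart, against 20.5% of all genes. With all 8 libraries these shares were near the background. The counts depended on the libraries used: without mutant replicate 1, 8 receptor genes rose and 4 fell, against 11.4% of genes higher and 12.1% lower, and with any other library left out 1 rose and 1 to 4 fell. The median log2 fold change was -0.03 over the receptor genes and 0.01 over all genes tested, and no receptor gene reached a log2 fold change of 1 in size.

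**Figure D1:**
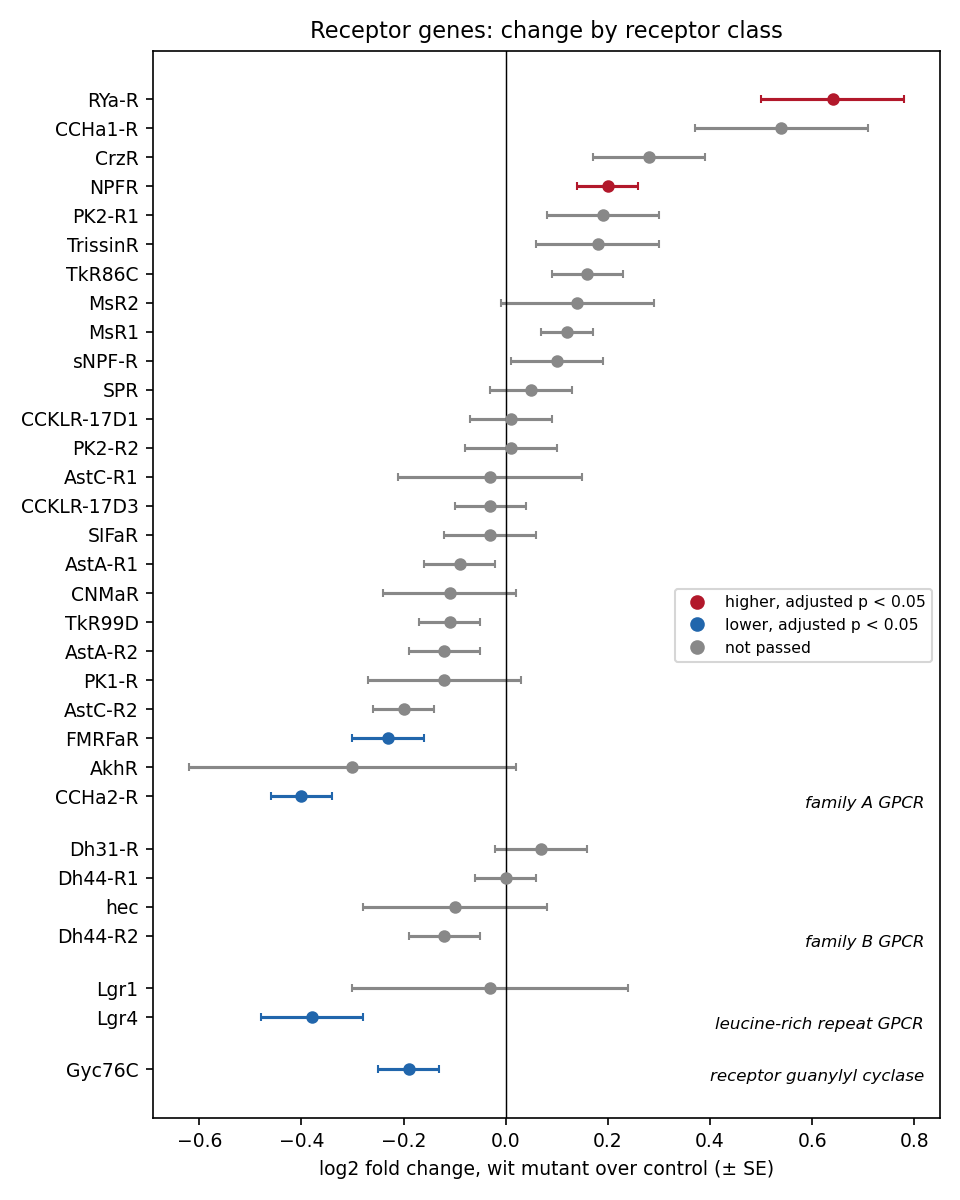
Log2 fold change of each of the 32 receptor genes, wit mutant over control, with its standard error (x axis) and the genes grouped by receptor class (y axis). CCHa2-R, Lgr4, FMRFaR and Gyc76C (blue) lie below 0 and RYa-R and NPFR (red) above it, and the 26 grey genes, from -0.30 for AkhR to 0.54 for CCHa1-R, did not pass the test.

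The clearest fall was that of CCHa2-R (FBgn0033058, chromosome 2R, 6050949 to 6068680), the receptor for CCHamide-2, a peptide of gut and fat body that acts on insulin-producing cells. It had 13.7, 15.1, 14.3 and 14.8 CPM in mutant libraries 1 to 4, against 19.0, 20.6, 18.9 and 18.2 CPM in control libraries 1 to 4. All mutant values lay below all control values, and both groups were tight. The mean was 14.5 ± 0.617 CPM in mutants and 19.2 ± 1.05 CPM in controls (SD, n = 4 each), a log2 fold change of -0.40 (SE 0.06, edgeR adjusted p = 0.000652). The call held in all 14 alternative fits, with adjusted p up to 0.00521.

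Lgr4 (FBgn0085440, chromosome X, 13161714 to 13189164) encodes a leucine-rich repeat receptor related to vertebrate relaxin receptors. It had 4.97, 4.58, 4.29 and 4.21 CPM in mutants, against 5.65, 6.43, 5.38 and 5.92 CPM in controls. The groups did not overlap, but the gap between the highest mutant and the lowest control value was small and the gene rested on 105 to 189 counts per library. The change was -0.38 on the log2 scale (SE 0.10, edgeR adjusted p = 0.0259), and it was lost without mutant replicate 2, 3 or 4 or control replicate 2 or 4 (adjusted p 0.0541 to 0.0797). Lgr4 shares 868 bp of exon with CG12096 on the opposite strand, whose own log2 fold change was 0.08 (adjusted p = 0.376), and use of strand in counting is not stated in the labels or notes.

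FMRFaR (FBgn0035385, chromosome 3L, 3001716 to 3011860) encodes the receptor for FMRFamide peptides. It had 24.0, 27.1, 25.3 and 28.9 CPM in mutants, against 33.0, 28.0, 30 and 32.6 CPM in controls. The groups overlapped, because mutant replicate 4 was above control replicate 2. On the log2 scale the change was -0.23 (SE 0.07, edgeR adjusted p = 0.0409), which missed the threshold without mutant replicate 2 or 3 or control replicate 1, 3 or 4 (adjusted p 0.0742 to 0.113). Its size was close to that of the pan-neuronal marker nSyb (-0.22), while elav, another neuronal marker, had -0.11 without passing. The part of neuronal content in the result was not tested.

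Gyc76C (FBgn0266136, chromosome 3L, 19750943 to 19793569) encodes a transmembrane guanylyl cyclase that acts in motor axon guidance by semaphorins. It had 19.6, 17.8, 18.9 and 20.7 CPM in mutants, against 21.4, 22.4, 20.9 and 23.3 CPM in controls. The groups did not overlap, though mutant replicate 4 and control replicate 3 differed by little. The log2 fold change of -0.19 (SE 0.06, edgeR adjusted p = 0.0433) was lost without mutant replicate 2 or 3 or any 1 control replicate (adjusted p 0.059 to 0.128). This gene shares 968 bp of exon with CG42637 on the same strand, so its reads cannot be assigned with certainty, and the value for CG42637 was -0.15 (adjusted p = 0.14).

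RYa-R (FBgn0004842, chromosome 3R, 26996980 to 27057935), the receptor for RYamide peptides, showed the larger of the 2 rises. It had 7.44, 10.9, 10.8 and 12.9 CPM in mutants, against 6.86, 6.20, 6.86 and 7.14 CPM in controls. All mutant values were above all control values, but mutant replicate 1 was only just so. The mean was 10.5 ± 2.26 CPM in mutants and 6.77 ± 0.399 CPM in controls (SD, n = 4 each), a 1.56-fold difference (log2 fold change 0.64, SE 0.14, edgeR adjusted p = 0.0117). The call held in all 14 alternative fits, with adjusted p up to 0.0457. RYa-R was the only called receptor gene besides CCHa2-R for which that was so.

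NPFR (FBgn0037408, chromosome 3R, 6187315 to 6195403) encodes the receptor for neuropeptide F, the fly counterpart of neuropeptide Y, and is known for its part in feeding. It had 31.9, 35.9, 32.0 and 35.5 CPM in mutants, against 30.2, 31.2, 30 and 26.5 CPM in controls. The groups did not overlap, but the lowest mutant and the highest control library were close to each other. The log2 change came to 0.20 (SE 0.06, edgeR adjusted p = 0.0455), and leaving out any library but mutant replicate 1 ended the call (adjusted p 0.0503 to 0.119).

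**Figure D2:**
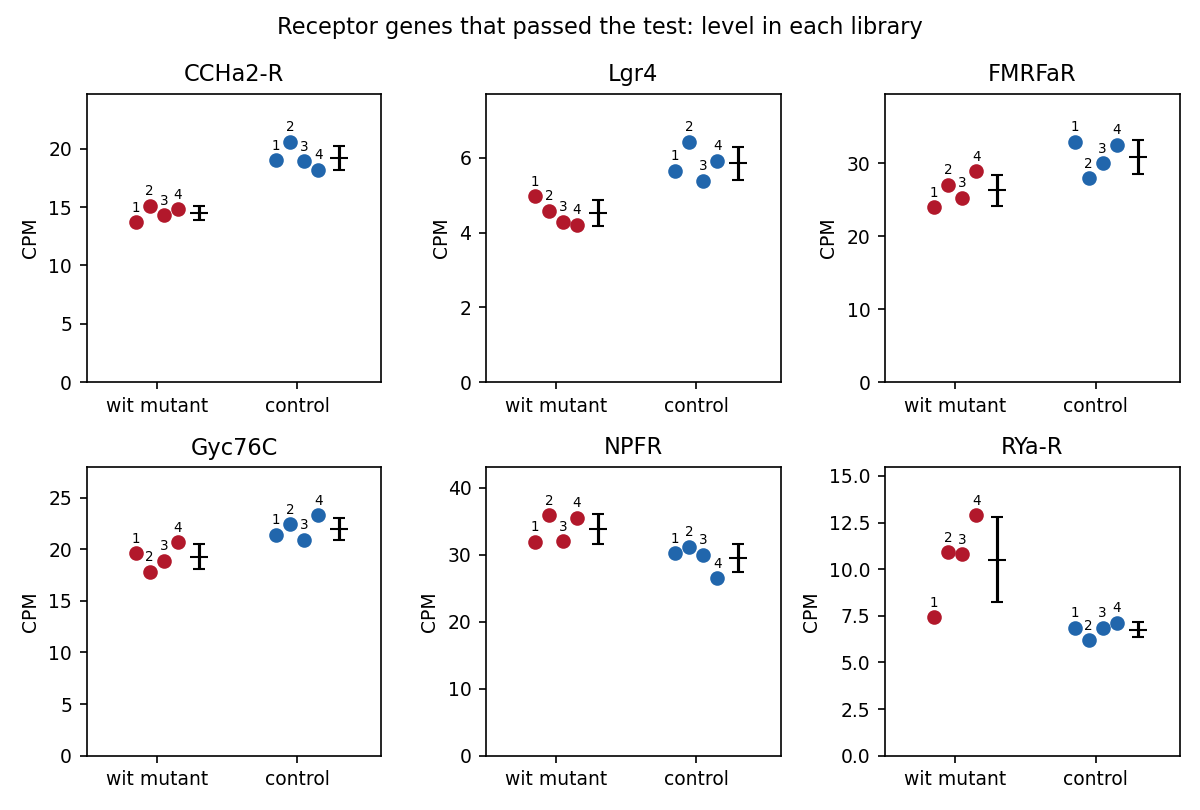
CPM (y axis) in each library of the 6 receptor genes that passed the test, with mutants to the left of controls, replicate numbers above the points and the mean ± SD beside each group. CCHa2-R separates widely, while RYa-R rises in mutant replicates 2 to 4 and lies at 7.44 CPM in mutant replicate 1, next to the controls at 6.20 to 7.14 CPM.

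The genotypes differ in 1 homologue of chromosome 3, on which 19 of the receptor genes lie. Of these 2 rose and 2 fell, which is 21.1% called against 15.2% of all tested genes on chromosome 3. Of the 13 on other chromosomes 2 fell, which is 15.4% against 14.4%. For FMRFaR, Gyc76C, RYa-R and NPFR, loss of wit and other differences between the third chromosomes cannot be told apart. The same limit holds for CCHa2-R and Lgr4, which lie on other chromosomes. It also holds for the genes of the other lists, whichever chromosome they lie on.

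CCHa1-R and AstC-R2 came near the threshold without passing it. CCHa1-R, the receptor for CCHamide-1, had 33.0, 50.5, 45.7 and 55.2 CPM in mutants, against 36.4, 25.8, 30.5 and 34.5 CPM in controls. Mutant replicate 1 lay inside the control range and the other mutants above it. Its log2 change was 0.54 (SE 0.17; edgeR adjusted p = 0.0854). AstC-R2, a receptor for allatostatin C related to somatostatin receptors, had 107, 113, 99.9 and 120 CPM in mutants, against 129, 134, 126 and 114 CPM in controls. Only mutant replicate 4 reached into the control range, and the log2 change was -0.20 (SE 0.06; edgeR adjusted p = 0.0527).

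The other 24 receptor genes that did not pass had log2 fold changes from -0.30 to 0.28, and 19 of them lay within 0.15 of 0. Among receptors of family B, Dh31-R, for the calcitonin-like peptide DH31, had 0.07 (SE 0.09), Dh44-R1 and Dh44-R2, for the corticotropin-releasing factor-like DH44, had 0.00 (SE 0.06) and -0.12 (SE 0.07), and hec, known for male courtship, had -0.10 (SE 0.18). Dh44-R1 was the most even of the 32 genes in controls, at 14.5, 14.2, 14.3 and 14.2 CPM, and had 14.4, 13.5, 15.1 and 14.1 CPM in mutants. Its mutant values lay on both sides of the controls.

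Receptors of the gonadotropin-releasing hormone type were uneven. CrzR, for corazonin, had 42.0, 54.8, 49.2 and 57.9 CPM in mutants, against 45.4, 36.1, 42.2 and 44.3 CPM in controls. Mutant replicates 2 to 4 were above every control and mutant replicate 1 was not (log2 fold change 0.28, SE 0.11, edgeR adjusted p = 0.113). AkhR, for adipokinetic hormone and known for lipid mobilisation in the fat body, had only 8 to 20 counts per mutant library and 10 to 23 per control library. Its log2 fold change of -0.30 had an SE of 0.32, so a change of moderate size was not detectable at this depth. Lgr1, for the glycoprotein hormone thyrostimulin, was as scarce, with 13 to 32 counts per mutant library, 17 to 26 per control library and a log2 fold change of -0.03 (SE 0.27).

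The remaining receptors of family A had log2 fold changes within 0.20 of 0. The hugin receptor genes PK2-R1 and PK2-R2 had 0.19 (SE 0.11) and 0.01 (SE 0.09), sNPF-R, for short neuropeptide F, had 0.10 (SE 0.09), and SIFaR had -0.03 (SE 0.09). SPR, a receptor for sex peptide and for myoinhibitory peptides, had 0.05 (SE 0.08), TrissinR had 0.18 (SE 0.12), CNMaR had -0.11 (SE 0.13) and PK1-R, for the pyrokinin of the Capa gene, had -0.12 (SE 0.15). CCKLR-17D1, a drosulfakinin receptor known to promote growth of the larval neuromuscular junction, had 8.86, 9.90, 10.6 and 8.57 CPM in mutants, against 9.49, 9.14, 9.72 and 9.37 CPM in controls. The mutant values spread around the controls on both sides (log2 fold change 0.01, SE 0.08).

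In 7 pairs, 6 of receptor genes with a shared ligand and 1 of the tachykinin-type receptor genes, the log2 ratio of one gene to the other was compared within each library. A difference in this ratio between genotypes shows that the members of a pair changed unequally, which separate calls cannot show. The tachykinin-type receptors differed most: the log2 ratio of TkR99D, the tachykinin receptor gene, to TkR86C, the natalisin receptor gene, was 0.80 ± 0.18 in mutants and 1.06 ± 0.12 in controls (SD, n = 4 each). The difference was -0.26 (SE 0.11), and the ratios did not overlap (exact permutation test, two-sided, p = 0.0286, the smallest this design allows). Adjusted over the 7 pairs, p was 0.2, so the difference does not pass. On their own TkR99D had a log2 fold change of -0.11 (SE 0.06) and TkR86C of 0.16 (SE 0.07), and neither passed.

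PK2-R1 gained on PK2-R2 by 0.17 (SE 0.04; exact permutation p = 0.0571, adjusted 0.2), and Dh44-R1 on Dh44-R2 by 0.12 (SE 0.06; exact permutation p = 0.114, adjusted 0.267). The allatostatin A receptors, AstA-R1 to AstA-R2, differed by 0.03 (SE 0.11), the allatostatin C receptors, AstC-R1 to AstC-R2, by 0.12 (SE 0.20), the drosulfakinin receptors, CCKLR-17D1 to CCKLR-17D3, by 0.04 (SE 0.11), and the myosuppressin receptors, MsR1 to MsR2, by 0.02 (SE 0.23), with adjusted exact permutation p of 0.943 each. The single fold changes were -0.03 (SE 0.18) for AstC-R1, 0.01 for CCKLR-17D1, -0.03 (SE 0.07) for CCKLR-17D3, 0.12 (SE 0.05) for MsR1 and 0.14 (SE 0.15) for MsR2. In the AstC and Ms pairs, which had the widest errors, mutant replicate 1 stood apart: AstC-R1 had 10.3 CPM there against 14.3 to 20 CPM in the other mutants, and MsR2 had 9.47 CPM against 14.0 to 16.9 CPM. With these errors the pairs are not shown to change alike.

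Levels of different receptor genes can be set side by side only per length, here as CPM per kilobase of merged exons. AstC-R2 was the most abundant receptor transcript in both genotypes, at 29.4 ± 2.25 in mutants and 33.7 ± 2.21 in controls (SD, n = 4 each), and in controls its range did not meet that of the next gene. PK2-R1 followed at 20.1 ± 3.28 in mutants and 17.7 ± 0.866 in controls. SPR, CrzR, TrissinR, Dh31-R, TkR99D and CCHa1-R came next with 12.0 to 15.9 in controls, and from CrzR down to CCHa1-R neighbours overlapped in their control ranges. At the low end hec and PK1-R stood near 1 CPM per kilobase, with 0.993 and 0.853 in mutants and 1.06 and 0.928 in controls. Lgr1 and AkhR were lowest, on few counts in each library, with 0.204 and 0.163 in mutants and 0.21 and 0.20 in controls. Of the 31 neighbouring pairs in the control order, 9 had ranges that did not overlap. The order was almost the same between genotypes (Spearman's rho 0.982 over 32 genes, as a description), with CCHa1-R at rank 3 in mutants against 8 in controls and CCHa2-R at rank 21 against 16.

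**Figure D3:**
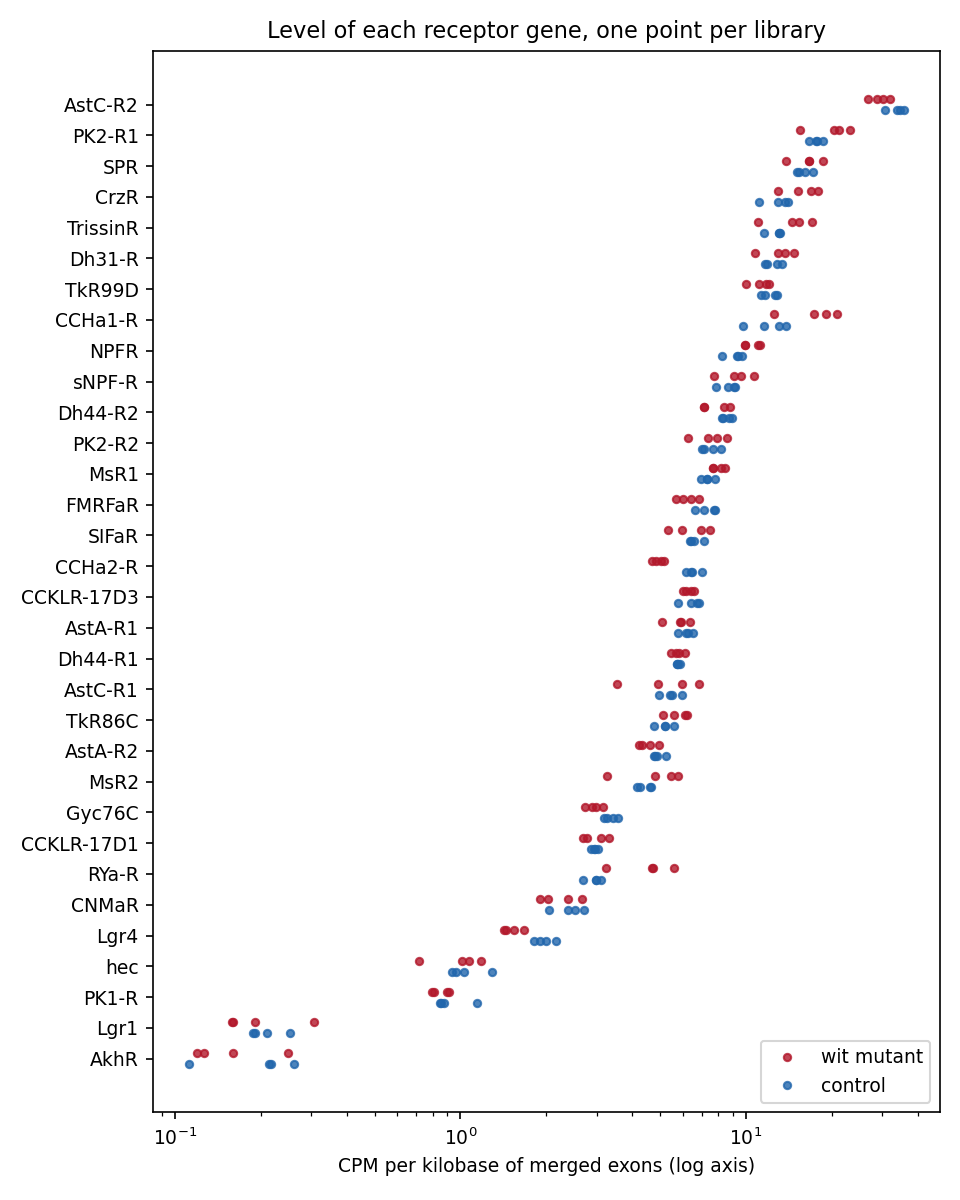
CPM per kilobase of merged exons on a log axis (x axis) for each receptor gene in order of its control mean (y axis), with 1 point per library and mutants drawn above controls. AstC-R2 stands alone at the top and Lgr1 and AkhR at the bottom, while most neighbours between them overlap.

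The genes for the ligands of these receptors were read from the same fit. Of 25 ligand genes 20 could be tested, and 6 fell and 1 rose, which is 35% called against 14.8% of all genes, with a median log2 fold change of -0.16 against 0.01. Earlier results of these data were known when this list was drawn up, so its direction is not independent evidence. No ligand gene was listed for hec, Lgr4 and Gyc76C, so these 3 receptor genes, of which Lgr4 and Gyc76C fell, did not enter this comparison. The 7 called ligand genes gave 8 receptor and ligand combinations, and in 1 of these, FMRFa with FMRFaR, the receptor gene was called as well. FMRFa, which encodes FMRFamide peptides, had a log2 fold change of -2.40 where its receptor gene had -0.23.

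In the other combinations with a called ligand gene the receptor gene did not pass. Gpa2, a subunit gene of thyrostimulin, had -0.75 beside -0.03 for Lgr1, and the gene of the other subunit, Gpb5, had 0.02. Mip, for myoinhibitory peptides, had -0.61 beside 0.05 for SPR. Crz, for corazonin, had -0.58 beside 0.28 for CrzR, and AstA had -0.39 beside -0.09 for AstA-R1 and -0.12 for AstA-R2. Capa had -0.30 beside -0.12 for PK1-R, and CCHa1 had 0.49 beside 0.54 for CCHa1-R. The call of CCHa1, the 1 ligand gene that rose, was lost under the replicate block and without mutant replicate 2 or control replicate 1, 2 or 4. In reverse, CCHa2-R fell while CCHa2 had -0.10 (adjusted p = 0.546), and NPFR rose while NPF, with 13 to 23 counts per library, had -0.33 (adjusted p = 0.449).

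Several receptor genes were well measured where the RNA of their ligand was scarce. SIFaR had 32.4 ± 4.83 CPM in mutants and 33.3 ± 1.70 CPM in controls, while SIFa had 0 counts, which allows up to 3 counts per library. RYa had 6 to 12 counts per library beside 157 to 379 for RYa-R, and Trissin had 2 to 7 beside 844 to 1829 for TrissinR. The drosulfakinin gene Dsk had 5 to 28 counts beside 187 to 344 for CCKLR-17D1. SP, the sex peptide gene of the male accessory gland, had 0 counts in these female larvae. Akh, made in the ring gland, had 96 counts in mutant replicate 2 against 8 to 15 in the other 7 libraries.

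**Figure D4:**
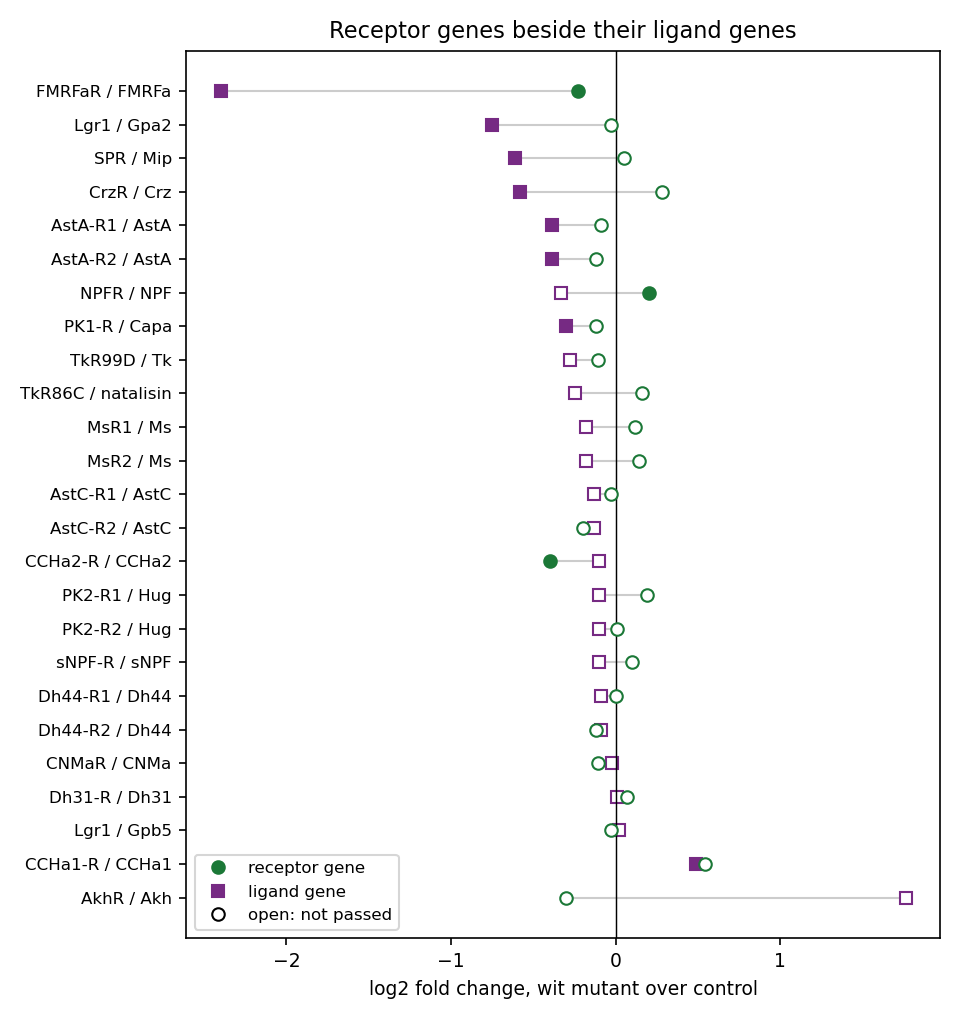
Log2 fold changes, wit mutant over control (x axis), of receptor genes (circles) and of the ligand gene tested beside each (squares), in order of the ligand's value, with filled symbols for genes that passed the test. FMRFa lies at -2.40 and its receptor gene at -0.23, and most receptor genes stay close to 0 where the ligand gene is lower.

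Downstream of the receptors, 9 of 30 tested genes of G protein signalling fell and the other 21 did not pass, which is 30% called against 14.8% of all genes, with a median log2 fold change of -0.06 against 0.01. Without mutant replicate 1, 10 of them fell and 3 rose, where 12.1% of all genes were lower and 11.4% higher. The arrestin gene krz, whose product ends signalling of active G protein-coupled receptors, fell to 91.4 ± 2.25 CPM in mutants, against 123 ± 1.38 CPM in controls (log2 fold change -0.43, SE 0.03, edgeR adjusted p = 5.11e-06). The receptor kinase gene Gprk2 (-0.19), the adenylyl cyclase gene Ac78C (-0.25) and Pka-C1 (-0.20), for the catalytic subunit of protein kinase A, also fell. Of the G protein subunit genes, Ggamma30A (-0.23), Galphao (-0.20) and Galphaq (-0.12) fell. The other subunit genes tested, among them Galphas (-0.02) and Gbeta13F (-0.06), did not pass. The falls of Gprk2, Ac78C, Pka-C1, Ggamma30A and Galphao were close in size to those of nSyb and Syt1, while elav had -0.11. The part of neuronal content was not tested.

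Of 9 tested genes for other peptide receptors, rk, the receptor gene for the hormone bursicon, rose (0.62, edgeR adjusted p = 0.049) and the receptor kinase gene Alk fell (-0.14, adjusted p = 0.0464). On this short list that is 22.2% called, against 14.8% of all genes. Leaving out any library but mutant replicate 1 ended the call of rk, and leaving out any but mutant replicate 1 or control replicate 1 ended that of Alk. CCAP-R and Pdfr, next in order of p, had 0.15 and -0.51 (adjusted p = 0.147 and 0.255). Of 23 tested receptor genes for amines and other small transmitters 2 rose and 6 fell, 34.8% called against 14.8% of all genes. The 6 falls became 3 without control replicate 3 or 4 and under the replicate block, and the 2 rises became 4 without mutant replicate 1. The smallest p-values there belonged to Oct-TyrR (-0.61), Dop1R1 (0.83), 5-HT1A (-0.24) and Octbeta1R (-0.34).

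The receptor genes varied more between mutant libraries than genes at large, which were not matched to them in level. Their median coefficient of variation was 11.6% in mutants and 6.47% in controls, against 6.07% and 4.69% over all genes tested. It was larger in mutants for 27 of the 32, or 84.4%, against 64.4% of all genes. Much of this lay in mutant replicate 1, in which 13 receptor genes, or 40.6%, were at least 20% below the mean of the other 3 mutants, against 7.66% of all genes. The corresponding numbers were 1, 1 and 2 receptor genes in mutant replicates 2, 3 and 4, and at most 1 in any control library. For those libraries the share over all genes was not computed.

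The 13 genes were AstC-R1, MsR2, RYa-R, CCHa1-R, AkhR, TrissinR, PK2-R1, CrzR, Dh31-R, SIFaR, PK2-R2, sNPF-R and SPR. AkhR had only 8 counts in mutant replicate 1, against 13 to 20 in the other mutants. TrissinR had 40.0 CPM in mutant replicate 1 and 55.6, 52.6 and 62.2 CPM in the others, against 47.6, 42.4, 47.7 and 47.9 CPM in controls. PK2-R1 had 42.6 CPM in mutant replicate 1 and 56.0, 58.4 and 63.9 CPM in the others, against 51.6, 45.8, 48.8 and 48.5 CPM in controls. In both genes mutant replicate 1 was below every control and the other mutants above every control. The 13 genes include receptors of family A and of family B. Of them 8 lie on chromosome 3, where 19 of all 32 receptor genes lie, a similar share. The median gene span of the 13 genes was 18.1 kb, against 13.6 kb for the other 19 receptor genes and 3.04 kb for all genes tested.

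**Figure D5:**
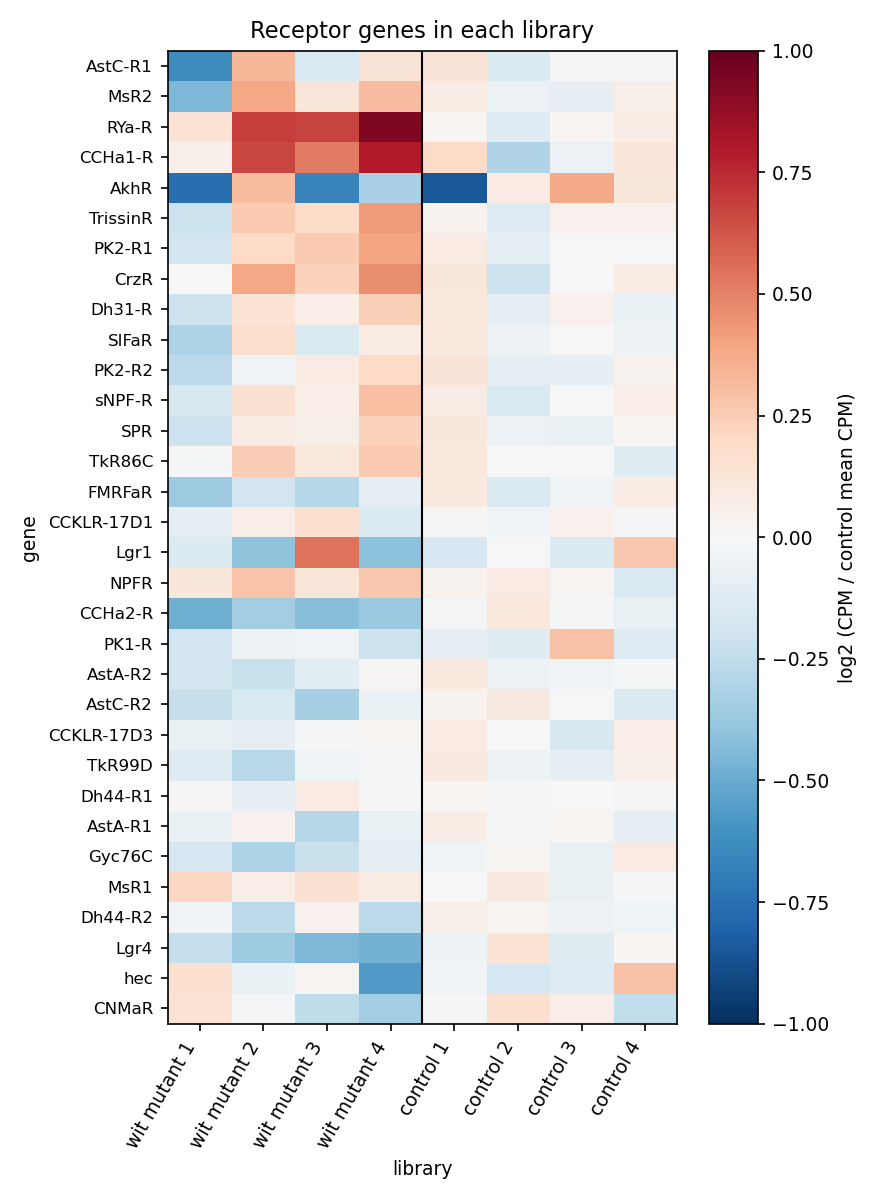
Log2 ratio of CPM to the control mean (colour) for each receptor gene (y axis) in each library (x axis), mutants left of controls, ordered from the genes lowest in mutant replicate 1 relative to the other mutants. In most of the upper rows, AkhR being an exception, mutant replicate 1 is near or below the controls while mutant replicates 2 and 4 are above them; CCHa2-R and Lgr4 are low in all 4 mutants.

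The 8 receptor genes that rose without mutant replicate 1 included RYa-R (0.77, edgeR adjusted p = 4.59e-05) and NPFR (adjusted p = 0.0163), and the 4 that fell were the same genes as with all libraries. The 6 further rises were those of CCHa1-R (0.66, adjusted p = 0.0118), CrzR (0.36, adjusted p = 0.0142), PK2-R1 (0.29, adjusted p = 0.00138), TrissinR (0.29, adjusted p = 0.00561), MsR2 (0.28, adjusted p = 0.0192) and TkR86C (0.20, adjusted p = 0.0387). Mutant replicate 1 had the smallest total, 20923717 estimated counts. Its summed level of the 4 muscle markers was the highest of all libraries, at 11.6 CPM, where the lowest mutant library had 2.58 CPM and controls had 2.86 to 7.19 CPM, and each of the 4 markers had counts in every library. Its tracheal and hemocyte markers gave the lowest sums of the mutants. The tracheal markers trh, Gasp, Cht2 and verm summed to 165.3 to 193 CPM in mutants and 152 to 173 CPM in controls, and the hemocyte markers Hml, NimC1, He and Pxn to 46.5 to 64.7 CPM in mutants and 54.4 to 65 CPM in controls. Gasp had 13.9 CPM in mutant replicate 1 and 22.5, 16.4 and 18.4 CPM in the other mutants, against 14.1, 12.9, 9.64 and 10.7 CPM in controls, and was called higher (log2 fold change 0.59, edgeR adjusted p = 0.0457). Pxn had 44.4 CPM in mutant replicate 1 and 56.8, 52.1 and 63.7 CPM in the other mutants, against 52.4 to 61.9 CPM in controls, without passing. Among mutants trh and verm were also lowest in replicate 1. Cht2 and Hml were highest there, with 49.3 CPM against 44.2 to 46.7 CPM and 2.04 CPM against 0.884 to 1.62 CPM. NimC1 and He had at most 3 and 9 counts per library, so the hemocyte sum was nearly all Pxn. The parts of these measures in the result were not tested.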

How the data were processed

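Polyadenylated RNA from pooled ventral nerve cords was sequenced as stranded, paired reads, per the labels' protocols. The authors deposited estimated counts per gene for each of 8 libraries, and 31.36% of the values were not whole. kallisto 0.43.0, DESeq2 and the BDGP 6 build are named in the submitters' processing notes. The labels and notes do not state how transcripts were summed to genes. Of 14175 identifiers 13948 received a symbol and coordinates from Ensembl release 115.

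Estimated counts were rounded, filtered with filterByExpr (minimum count 10) and scaled by TMM, and genotypes were compared with edgeR 4.0.16 (quasi-likelihood test, Benjamini-Hochberg over 9176 genes, threshold 0.05). The procedure was tested on simulated data. CPM use the TMM-scaled totals. Receptor pairs were compared by exact permutation of log2 CPM ratios (prior count 2). Each p-value measures the spread between pooled libraries.

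The receptors and all gene lists were chosen with earlier results of these data known. Every receptor gene was to be accounted for, in full where it was called or its groups did not overlap. Ligand genes were given beside receptors, and of other lists up to 4 genes with the smallest p. Alternatives used DESeq2 1.42.0, limma 3.58.1, other filters and lengths, a replicate block and each library left out. No pair of libraries within a genotype agreed within sampling noise (chi-square per degree of freedom 3.8 to 36.0).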

Additional observations from a re-analysis of the deposited data

Results flagged for a closer look

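Among 64 groups of 4 libraries, 1 gene in 1 genotype each, 2 had a single library far from the others, and chance gives about 1 in 20. PK1-R, the pyrokinin receptor gene, had 2.85 CPM in control replicate 3, above 2.13 to 2.20 CPM in the other controls. TrissinR had 42.4 CPM in control replicate 2, below 47.6 to 47.9 CPM in the other controls.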

How the results depend on the processing

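CCHa2-R and RYa-R were called in all 14 alternatives. The receptor genes called higher numbered 2, against 4 with the DESeq2 Wald test, 5 with limma-voom and 1 with a replicate block, and 1 to 8 with 1 library left out. Those called lower numbered 4, against 5 with limma-voom and with a minimum count of 30, 3 with no filter, 1 with the block and 1 to 4 with 1 library left out. Over all genes 562 were higher, against 1001 with limma-voom, 301 with the block and 304 to 1060 with 1 library left out, and 795 were lower, against 1133 with limma-voom, 553 with the block and 524 to 1124 with 1 library left out. Among the fits with 1 library left out, both highest counts over all genes came without mutant replicate 1. Libraries of the same number correlated between -0.31 and 0.041 in their deviations. This gave no sign of pairing by number, but with 4 libraries per genotype it cannot exclude pairing. Under the replicate block Lgr4, FMRFaR, Gyc76C and NPFR had edgeR adjusted p of 0.0648, 0.0812, 0.066 and 0.0969. Gyc76C was also lost with the DESeq2 Wald test (adjusted p = 0.06) and with no filter (edgeR adjusted p = 0.0568).

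Of 446 receptor fold changes under alternatives, 374 kept direction and call, 29 lost the call, 16 gained one and 27 changed sign. Sign changes with limma-voom gave AstC-R1 0.02, CCKLR-17D3 0.01, Dh44-R1 0.01 and Lgr1 0.05, and Dh44-R1 had 0.00 with no filter. With 1 library left out the log2 fold change ran from -0.17 to 0.11 for AstC-R1, -0.05 to 0.06 for CCKLR-17D1, -0.03 to 0.03 for Dh44-R1, -0.18 to 0.04 for hec, -0.32 to 0.09 for Lgr1, -0.05 to 0.09 for PK2-R2, -0.11 to 0.04 for SIFaR and -0.01 to 0.12 for SPR. The ratio differences ran from -0.05 to 0.10 for the AstA pair, 0.00 to 0.29 for AstC, -0.01 to 0.10 for CCKLR-17D and -0.18 to 0.14 for Ms. The cause was not tested. AkhR and Lgr1 gave no value at a minimum count of 30. With 1 library left out the exact test of a pair cannot go below 0.0571, and the paired one not below 0.125.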
